A study of Mus musculus with 11 samples.

Results

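The small leucine-rich proteoglycans are secreted matrix proteins built around a core of leucine-rich repeats, most of which carry chondroitin, dermatan or keratan sulphate chains. They bind collagen fibrils and set their diameter and spacing, and several also hold TGF-beta or touch receptors on cells. In the mammary gland, decorin and lumican are made mainly by stromal fibroblasts. The 10 genes described here, Aspn, Bgn, Dcn, Fmod, Lum, Prelp, Kera, Omd, Ogn and Epyc, were chosen by family membership, with their levels in all 3 groups already known. All 10 were measured among 23835 named genes. Because their levels bore on the choice, these are given as a description. Where the fit's calls of the 10 are counted, the counts only describe them and are no test of the family, and p-values are given for other genes alone. The lists of those other genes were also chosen with earlier results of these data known.

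The data are 11 Affymetrix expression arrays of mouse mammary tumour cells of genotype MMTV-rtTA;TetO-Wnt1. In these cells the MMTV promoter, active mainly in mammary epithelium, drives the doxycycline-dependent activator rtTA, which switches on a Wnt1 transgene. The cells carried H2B-eGFP, a green histone label, and were grown in the mammary gland of female nu/nu mice, a host that lacks mature T cells, on doxycycline. The titles mark every sample as GFP plus. The primary group (4 arrays) was untreated. The residual group (3 arrays) was taken from lesions 28 days after doxycycline withdrawal, and the recurrent group (4 arrays) from tumours that came back after Wnt1 inhibition by the same withdrawal. No age is given. Nothing in the labels ties a group's arrays to different animals, and the p-values below therefore reflect variation among these samples only, some of which may be technical.

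Values are log2 signals, on which a difference of 1 is a 2-fold change. A signal's height depends on its probes, so levels of different genes are not set against each other. The 95th percentile of 1066 olfactory receptor genes, silent in most tissues, served as a background line and lay at 3.96 to 4.02 on the primary, 4.34 to 4.38 on the residual and 4.03 to 4.09 on the recurrent arrays. The interquartile range of all signals was narrower on residual arrays, at 3.57 to 3.60, than on those of primary cells, at 3.77 to 3.84, and of recurrent cells, at 3.71 to 3.78. Wnt1 itself read 2.89 to 3.26 on the 11 arrays, below the background line, so it checks no label. Krt8, a luminal keratin, read 10 to 10.15 on the primary arrays, while Epcam, an epithelial adhesion protein, read 3.14 to 3.45 there, below the line. Epcam read 3.47 to 6.29 on the residual arrays, with its mean above the line, and 3.32 to 3.45 on the recurrent arrays.

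Windows of 250 bases before the transcription start were on hand for 8 of the 10 genes, from RefSeq on build GRCm38.p6, with 9 windows in all since Epyc has 2 starts. The 4 below are shown to set a cluster beside a gene with another course: Aspn, Omd and Ogn, which lie side by side on chromosome 13 and were all high in residual and recurrent cells, and Fmod, on chromosome 1, which was lower in recurrent than in residual cells. Capitals mark matches to the motifs searched, on either strand.
Aspn, chr13:49544193-49544442, + strand: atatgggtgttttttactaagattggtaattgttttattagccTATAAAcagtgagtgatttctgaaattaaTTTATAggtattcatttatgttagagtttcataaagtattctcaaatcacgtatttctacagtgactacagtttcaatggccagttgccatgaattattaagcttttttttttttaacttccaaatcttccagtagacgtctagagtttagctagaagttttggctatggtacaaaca
Omd, chr13:49582212-49582461, + strand: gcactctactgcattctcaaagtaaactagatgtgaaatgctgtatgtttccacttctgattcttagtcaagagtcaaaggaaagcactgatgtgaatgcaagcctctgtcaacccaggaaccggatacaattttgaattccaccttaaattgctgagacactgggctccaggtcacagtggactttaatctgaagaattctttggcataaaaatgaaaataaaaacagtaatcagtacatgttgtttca
Ogn, chr13:49607765-49608014, + strand: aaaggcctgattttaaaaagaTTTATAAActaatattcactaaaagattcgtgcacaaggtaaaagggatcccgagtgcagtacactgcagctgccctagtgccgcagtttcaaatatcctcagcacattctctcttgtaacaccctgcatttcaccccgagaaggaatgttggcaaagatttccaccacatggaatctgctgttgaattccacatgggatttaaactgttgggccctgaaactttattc
Fmod, chr1:134037004-134037253, + strand: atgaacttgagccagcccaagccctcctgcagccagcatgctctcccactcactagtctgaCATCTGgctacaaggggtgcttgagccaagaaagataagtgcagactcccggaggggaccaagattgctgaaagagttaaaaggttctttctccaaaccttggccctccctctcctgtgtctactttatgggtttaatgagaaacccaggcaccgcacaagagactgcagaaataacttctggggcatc
The TATA box letters TATAAA were found in the Aspn and Ogn windows and in 12.4% of 32851 windows of the same length. They lay 207 bases before the start of Aspn on the sense strand, with the reverse letters at 178, and at 227 and 229 in Ogn, where the matches on both strands overlap. The E-box letters CATCTG stood 189 bases before the Fmod start and occur in 14.4% of all windows. CTTTGAT, letters bound by Tcf/Lef factors, was found in both Epyc windows (3.21% of all), and no window of the 9 held the AP-1 letters TGANTCA (6.75% of all) or the Smad letters CAGACA (17.1% of all). G and C made up 30.0% of the Aspn window, 38.4% of Omd, 42.0% of Ogn and 51.2% of Fmod, beside a median of 52.4% over all windows. Bgn had the most among the windows of these genes, at 64.4%. A letter match is a description of the window and shows no binding.

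Most of the family stood higher in residual and recurrent cells than in primary cells. In residual cells 8 of the 10 were called higher than in primary cells by limma at an adjusted p under 0.05, where 4.81% of all genes were called higher, 7.61% lower and 12.4% in either direction. In recurrent cells 7 were called higher, where 0.818% of all genes were called higher, 0.986% lower and 1.8% in either direction. Between recurrent and residual cells 1, Fmod, was called, as lower, where 2.19% of all genes were called lower, 3.58% higher and 5.78% in either direction. Counted by arrays that do not overlap, 9 of the 10 lay above primary cells in the residual group (11.1% of all genes, with 13.7% below) and 8 in the recurrent group (3.64%, with 5.38% below). Fmod was the 1 that lay wholly below its residual arrays in recurrent cells (7.32% of all genes, with 8.18% above). The median log2 difference of the 10 was 4.65 for residual and 3.40 for recurrent against primary cells, beside 0.03 and -0.01 over all genes. These medians include genes below the background line in primary cells, which have no exact fold. Both comparisons share the primary arrays, and nothing is read from these counts, since the same values bore on the choice of genes. The count over all genes in recurrent against primary cells, 430, fell to 207, 225, 211 and 203 without primary arrays 1, 2, 3 and 4. In a sorted population, a change in how many cells of a type were present and a change of RNA per cell cannot be told apart.

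**Figure D1:**
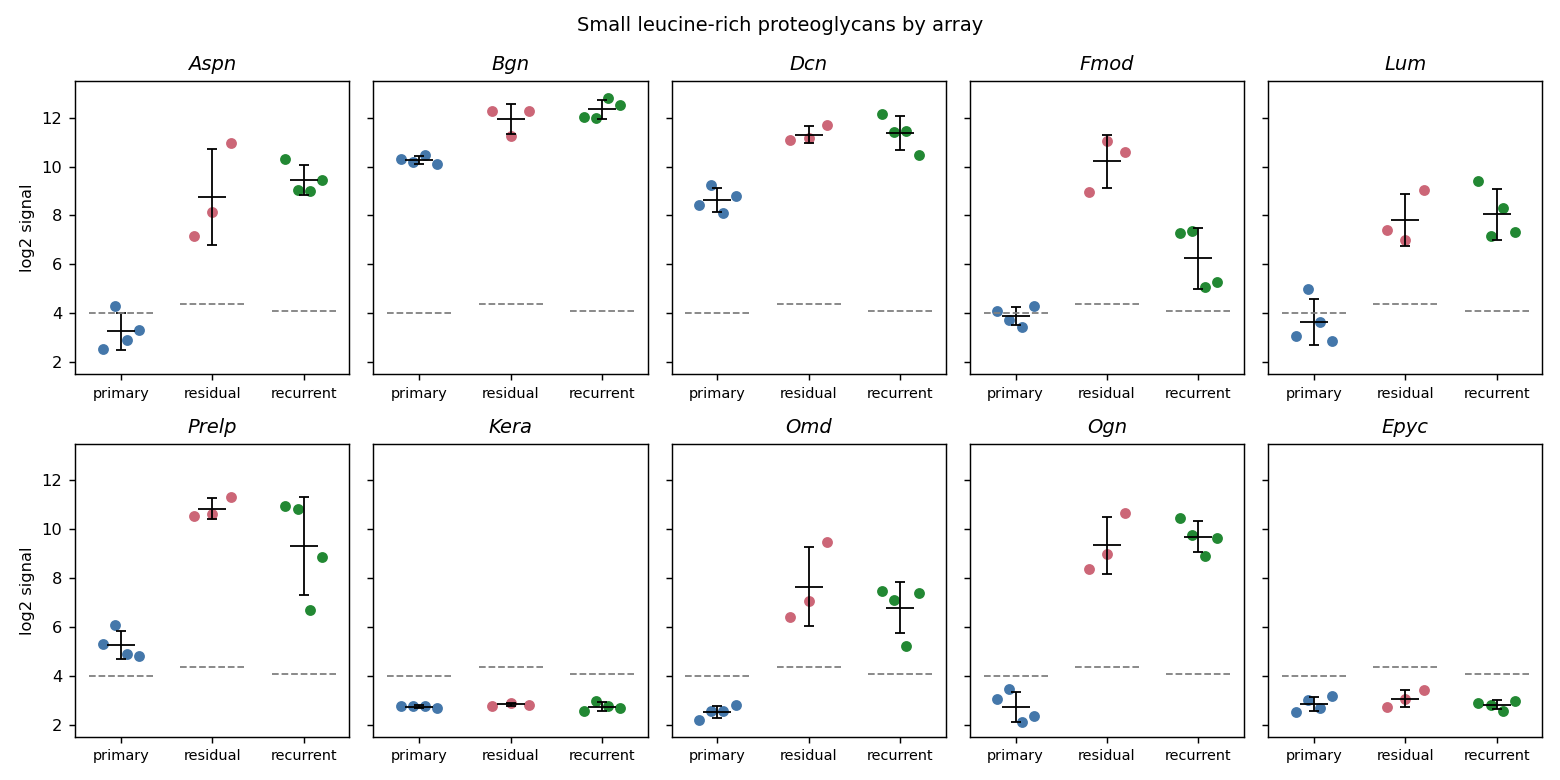
Log2 signal of the 10 proteoglycans on each of the 11 arrays (vertical axis), by group (horizontal axis), with points for arrays, bars for the group mean and SD, and a dashed background line per group. For 8 genes the residual and recurrent points lie above the primary ones, while Kera and Epyc lie below the background line in all 3 groups.

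Among the class I members, decorin (Dcn) carries 1 chain, caps collagen fibrils and is known to bind TGF-beta and the receptors Egfr and Met. Dcn read 8.43, 9.23, 8.09 and 8.78 on the primary arrays, 11.07, 11.15 and 11.71 on the residual arrays, and 12.17, 11.40, 11.46 and 10.48 on the recurrent arrays. Every residual and recurrent value stood above every primary value, and the residual and recurrent values overlapped. The difference from primary cells was 2.68 (SE 0.36, 6.39-fold) in residual and 2.74 (SE 0.34, 6.69-fold) in recurrent cells, with 0.07 (SE 0.36) between recurrent and residual cells.

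Biglycan (Bgn), the close relative of decorin that can also act as a ligand of the Toll-like receptors Tlr2 and Tlr4 when released from the matrix, differed least from primary cells among the 8. It read 10.32, 10.20, 10.46 and 10.10 on the primary arrays, 12.29, 11.24 and 12.28 on the residual arrays, and 12.03, 12, 12.81 and 12.53 on the recurrent arrays. The primary values lay below the rest, with residual array 2 the nearest to them. The mean differences from primary cells were 1.67 (SE 0.27, 3.18-fold) and 2.07 (SE 0.25, 4.21-fold).

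Asporin (Aspn), which carries a run of aspartates in place of a sugar chain and binds TGF-beta and collagen, was near the background line in primary cells. It read 2.54, 4.27, 2.89 and 3.29 on the primary arrays, 7.17, 8.13 and 10.95 on the residual arrays, and 10.31, 9.05, 9.01 and 9.46 on the recurrent arrays. The residual arrays spread widely, with array 3 above all recurrent arrays and arrays 1 and 2 below all of them. Since its primary mean, 3.25, lay below the background line, its folds are lower bounds, with each primary array set to the higher of its signal and that line. They bound the fold between group means and leave out the spread between arrays, so a single array may lie below them. The level was at least 25.6-fold higher in residual and at least 41.9-fold higher in recurrent cells. The recurrent minus residual difference, 0.71 (SE 0.74), ran from -0.08 to 1.81 as single arrays were left out.

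Fibromodulin (Fmod), a keratan sulphate proteoglycan of class II that steers collagen cross-linking, was the gene that set the residual and recurrent groups apart. It read 4.09, 3.73, 3.42 and 4.27 on the primary arrays, 8.97, 11.04 and 10.61 on the residual arrays, and 7.27, 7.35, 5.05 and 5.27 on the recurrent arrays. None of the groups overlapped, and the recurrent arrays themselves lay apart, with arrays 1 and 2 above arrays 3 and 4. The level was at least 69.7-fold higher in residual cells and at least 4.44-fold higher in recurrent cells than in primary cells. The recurrent minus residual difference was -3.97 (SE 0.62) and stayed between -4.59 and -3.55 without any single array. All its recurrent values exceeded all its primary ones, but the recurrent minus primary difference, 2.36 (SE 0.58), was not called.

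Lumican (Lum), which spaces fibrils in cornea and skin, read 3.06, 4.97, 3.64 and 2.87 on the primary arrays, 7.39, 7 and 9.04 on the residual arrays, and 9.40, 7.15, 8.30 and 7.30 on the recurrent arrays. The residual and recurrent ranges overlapped almost wholly and both lay above the primary range. The level was at least 11.8-fold higher in residual and at least 13.8-fold higher in recurrent cells.

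Prelp, which ties basement membranes to the underlying collagen, read 5.29, 6.07, 4.91 and 4.81 on the primary arrays, 10.56, 10.64 and 11.32 on the residual arrays, and 10.94, 10.83, 6.68 and 8.87 on the recurrent arrays. It was above background on all 11 arrays, and recurrent arrays 1 and 2 lay within the residual range while arrays 3 and 4 lay below it. The difference from primary cells was 5.57 (SE 0.83, 47.5-fold) in residual and 4.06 (SE 0.77, 16.6-fold) in recurrent cells. The recurrent minus residual difference, -1.51 (SE 0.83), was -0.63 without recurrent array 3 and -2.05 without recurrent array 1.

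Osteomodulin (Omd), a keratan sulphate proteoglycan of bone, read 2.19, 2.54, 2.56 and 2.80 on the primary arrays, 6.41, 7.05 and 9.49 on the residual arrays, and 7.45, 7.09, 5.22 and 7.38 on the recurrent arrays. Residual array 3 and recurrent array 3 stood apart from the rest of their groups, in opposite directions. The level was at least 12.5-fold higher in residual and at least 6.87-fold higher in recurrent cells.

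Osteoglycin (Ogn), the class III member also called mimecan, lay below background in primary cells. It read 3.03, 3.45, 2.09 and 2.36 on the primary arrays, 8.36, 8.99 and 10.65 on the residual arrays, and 10.45, 9.76, 8.92 and 9.66 on the recurrent arrays. Residual and recurrent values overlapped and lay far above the primary ones, at least 40.2-fold higher in residual and at least 51.7-fold higher in recurrent cells.

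Keratocan (Kera), a proteoglycan of the corneal stroma, and epiphycan (Epyc), one of growth cartilage, were above background on 0 of 11 arrays. Kera read 2.67 to 2.76 on the primary, 2.78 to 2.88 on the residual and 2.56 to 2.98 on the recurrent arrays, and Epyc 2.53 to 3.16, 2.73 to 3.42 and 2.57 to 2.98. Neither has a usable fold, and the fact that the 3 residual values of Kera lay above its 4 primary values is a gap within background.

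The order of the groups was thus primary lowest for 8 genes, and the residual and recurrent arrays of Aspn, Bgn, Dcn, Lum and Ogn overlapped, with means no more than 0.71 apart. Prelp and Omd also overlapped, with the residual mean the higher by 1.51 and 0.86. Fmod alone among the 10 had 3 groups of arrays without overlap, residual over recurrent over primary, with recurrent against primary not called.

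The order of arrays within a group was shared by much of the family. Among residual cells array 3 was the highest for 6 of the 8 genes above background (Aspn, Dcn, Lum, Prelp, Omd and Ogn), and array 1 was the lowest for 6. Among recurrent cells array 1 was the highest for 6 of 8 and array 3 the lowest for 5 (Aspn, Fmod, Prelp, Omd and Ogn), while Bgn peaked on array 3. Among primary cells array 2 was the highest for 5 (Aspn, Dcn, Lum, Prelp and Ogn). Without residual array 3 the residual difference fell to 4.40 for Aspn, 3.56 for Lum, 4.21 for Omd and 5.94 for Ogn, and without residual array 1 it rose to 6.29, 6.95 and 7.09 for Aspn, Fmod and Ogn. Array scaling, RNA quality and cell makeup were not tested as sources of this order.

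**Figure D2:**
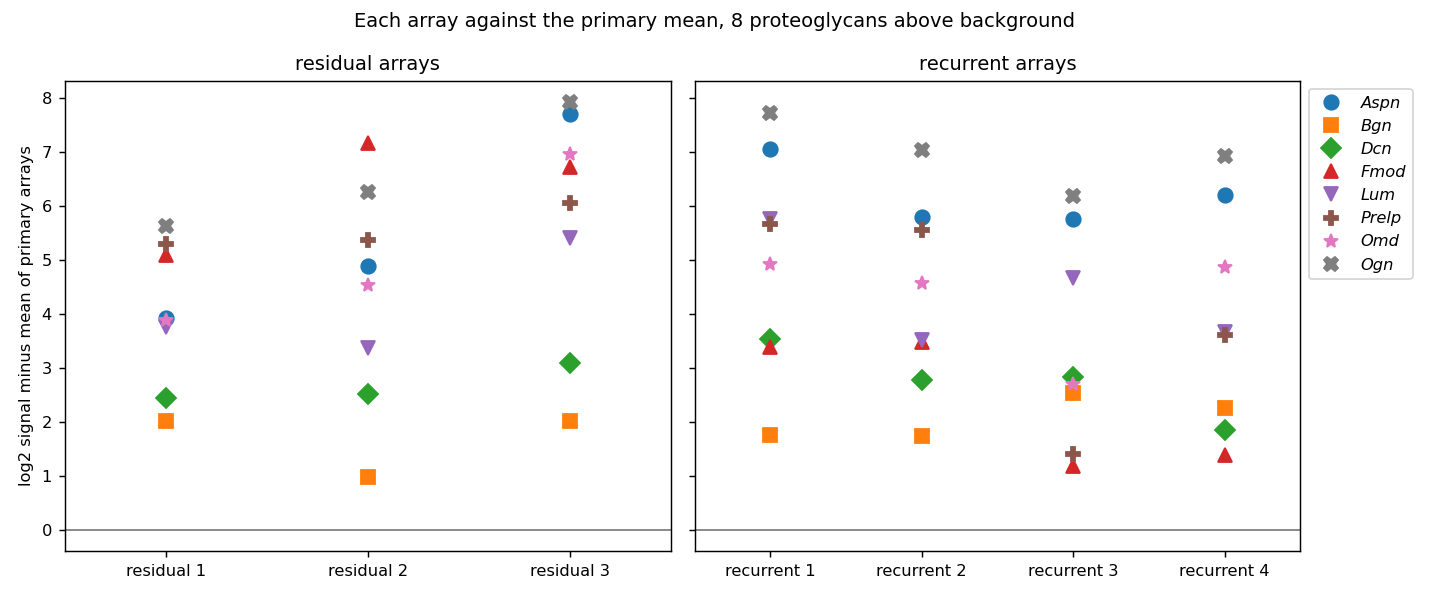
Log2 signal minus the mean of the primary arrays (vertical axis) on each residual and recurrent array (horizontal axis), with a marker shape for each of the 8 proteoglycans above background. Residual array 3 and recurrent array 1 are the highest of their groups for 6 of 8 genes each, and recurrent array 3 is the lowest for 5.

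The nearest patterns among other named genes were found by the root-mean-square difference over the 11 arrays, after subtracting each gene's own mean. Predicted and clone-named genes and olfactory and vomeronasal receptor genes were left out of this search. Aspn lay nearest to Itgbl1 (0.75), and closest of all to its family member Ogn (0.69). Ogn was followed by Itgbl1 (0.94), Postn (0.95), which encodes the matrix protein periostin, and Mme (1.1). Dcn was nearest to Serpinf1 (0.45), C1s1 (0.50) and Spry1 (0.52), and Bgn to Adgrl3 (0.33), Gpm6b (0.40) and Syt17 (0.43). Lum was nearest to Col3a1 (0.85), Dpt (0.91) and Prrx2 (0.95). For Fmod the nearest were S100b (0.95), Comp (0.99) and Chrdl1 (1.16), and for Prelp Apod (0.65), Comp (0.92) and S100b (1.05). Omd was nearest to Prrx2 (0.91), Mme (0.94) and Apod (0.96). Genes with small spans come out close to each other by this measure, so values of different members are not ranked.

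Other leucine-rich proteoglycans were a list of 9 genes, of which 3 were called higher in residual cells, where 4.81% of all genes were. Chad, which encodes the cartilage protein chondroadherin, read 3.63 to 3.86 on the primary arrays, 7.24, 5.17 and 10.98 on the residual ones, and 3.93, 4.64, 3.79 and 6.40 on the recurrent ones. Its residual difference was 4.08 (limma adjusted p = 0.0265), and the call was lost without residual array 1 or any primary array (adjusted p up to 0.0604). Chadl rose by 0.82 (adjusted p = 0.00166) and fell again by 0.61 in recurrent against residual cells (adjusted p = 0.0173), a call lost without residual array 2 (adjusted p = 0.0639). Podn rose by 0.96 (adjusted p = 0.0309), a call lost without residual array 3 or primary arrays 1, 2 or 3 (adjusted p up to 0.103). Ecm2, which lies beside Aspn on chromosome 13, differed by 0.90 with an adjusted p of 0.278. In recurrent against primary cells limma called 0 of the 9, with 2 at an unadjusted p under 0.05. Optc, Nyx, Tsku, Podnl1 and Nepn passed in no comparison.

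**Figure D3:**
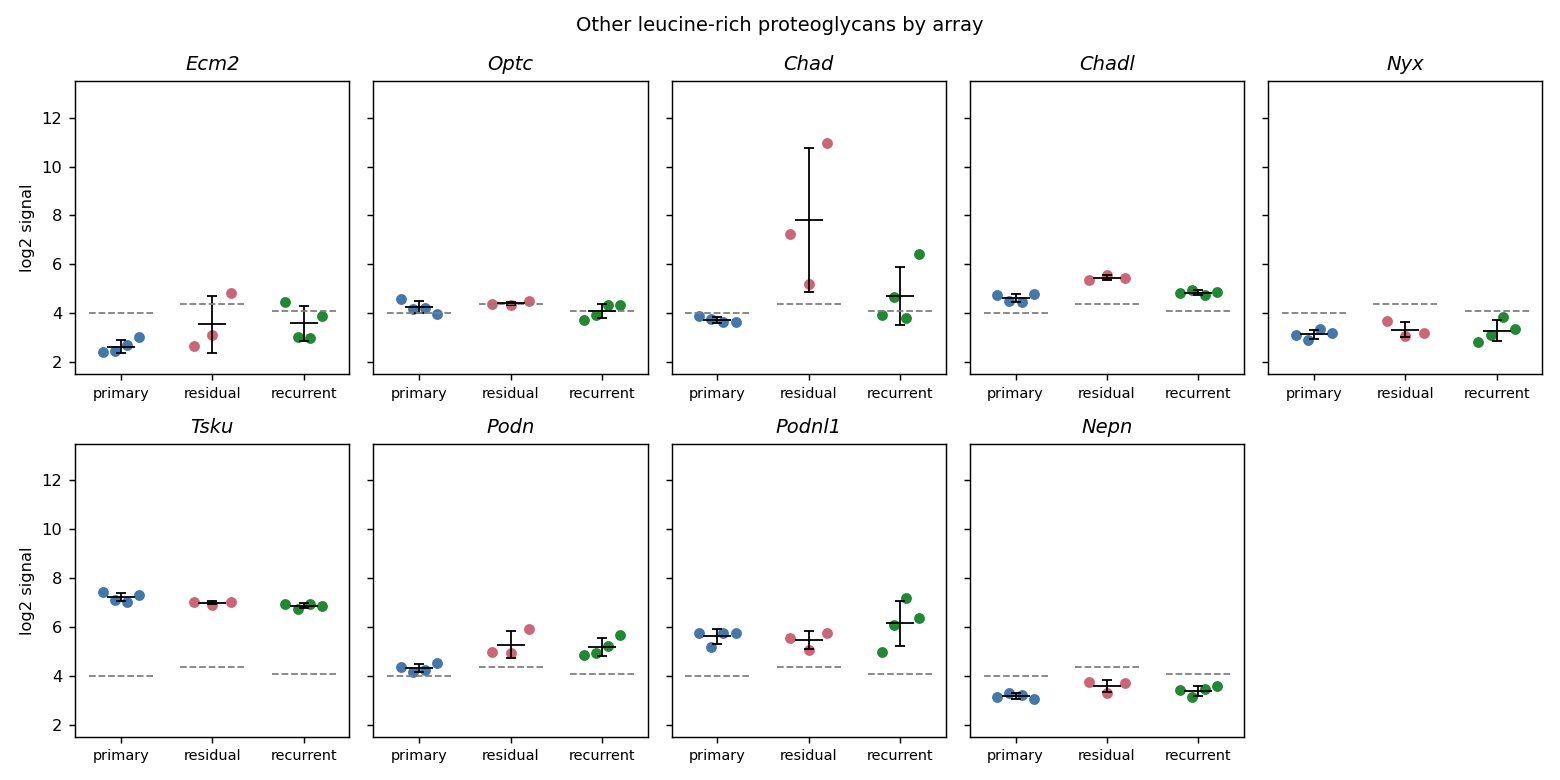
Log2 signal of the other leucine-rich proteoglycans on each array by group, with the background line, with bars for the mean and SD. Chad ran from 5.17 to 10.98 on the residual arrays, and the group means of the rest differed from the primary mean by at most 0.96.

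The proteoglycan genes lie in clusters, and the genes beside them were tested. The clusters are Prelp and Fmod on chromosome 1, Dcn, Lum, Kera and Epyc on chromosome 10, Aspn, Omd and Ogn on chromosome 13, and Bgn alone on the X. Of 25 neighbouring genes 2 were called higher and 3 lower in residual cells, 0 in recurrent against primary cells (2 at an unadjusted p under 0.05), and 2 higher and 1 lower in recurrent against residual cells. Over all genes, 12.4%, 1.8% and 5.78% were called in these comparisons. Atp2b4, a plasma membrane calcium pump separated from Prelp by Optc, rose by 1.36 in residual cells (limma adjusted p = 0.00695), and Btg2, an antiproliferative gene next to Fmod, by 1.14 (adjusted p = 0.00104). Atp2b4 fell by 1.02 in recurrent against residual cells (adjusted p = 0.0492, highest 0.146), a call lost under 13 of 20 alternatives. Atp2b1, a second pump gene beyond Kera and Epyc, fell by 0.55 (adjusted p = 0.0405), a call lost under 11 of 20 alternatives.

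Cenpp, a centromere protein gene whose annotated span holds Ecm2, Aspn, Omd and Ogn, went against all of them in residual against primary cells only. It read 4.98 to 5.72 in primary, 4.28 to 4.35 in residual, close to the background line, and 5.52 to 6.61 in recurrent cells. It fell by 1.05 in residual cells (adjusted p = 0.0169, lost without residual array 1) and rose by 1.62 in recurrent against residual cells (adjusted p = 0.00297). Omd alone of the genes in its span went the other way there (-0.86, not called). In recurrent against primary cells the difference of Cenpp, 0.57, was not called and had the same direction as those genes. Dusp9, a phosphatase gene near Bgn, read 6.48 to 7.04 on the primary and 3.9 to 4.4 on the residual arrays, so it fell by 2.64 (adjusted p = 3.05e-05), and it rose by 2.83 in recurrent against residual cells. Nudt4, Eea1 and Btg1, which flank Dcn, were called in no comparison.

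**Figure D4:**
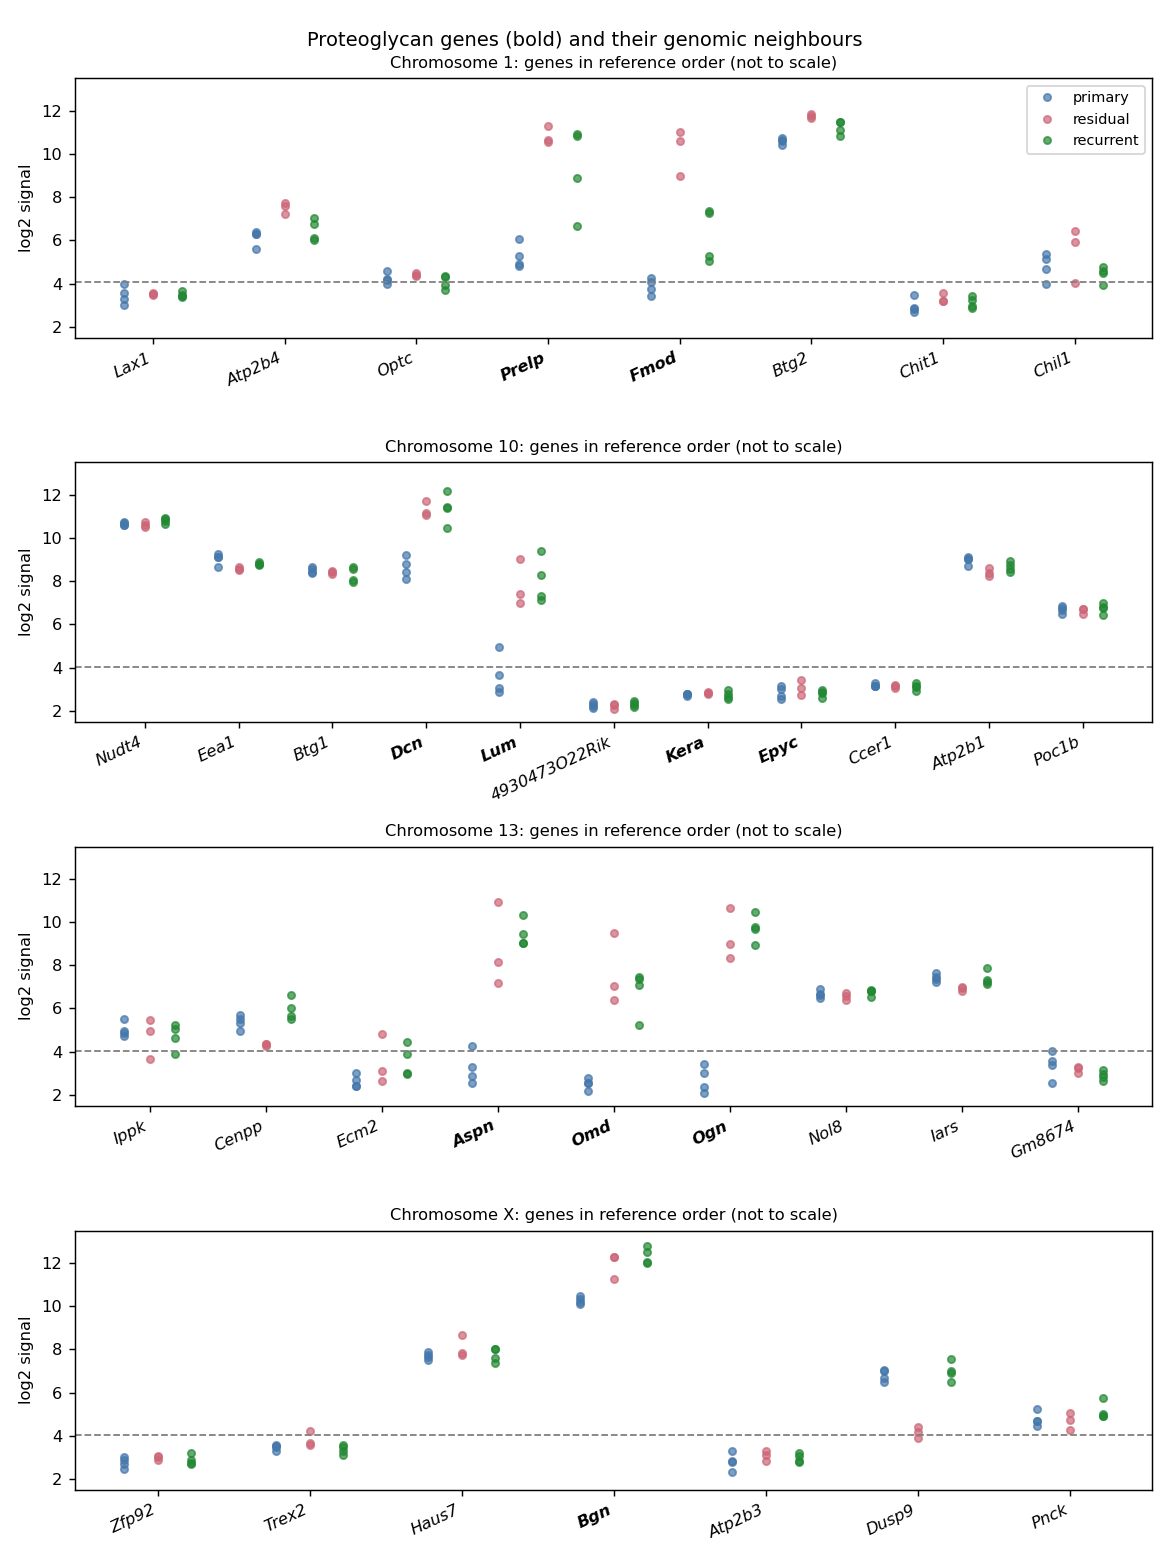
Log2 signal on each array (vertical axis) of the proteoglycans, in bold, and their neighbours in chromosomal order, not to scale (horizontal axis), with colours for the groups and a dashed line for the median background line of the 11 arrays, for 4 chromosomes. The residual and recurrent points of 8 proteoglycans lie above the primary ones. Among neighbours Dusp9, Cenpp, Iars and Eea1 are lowest on the residual arrays, with Iars and Eea1 called in no comparison.

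The enzymes that build the chondroitin, dermatan and keratan sulphate chains were called in both directions. Of 34, 5 were called higher and 3 lower in residual cells (4.81% and 7.61% of all genes). The median log2 difference was 0.05 beside 0.03 over all genes. Those called higher were Chst15 (1.27, adjusted p = 0.0495), Chst12 (1.01, 0.0171), Chpf2 (0.96, 0.0103), Dsel (0.92, 0.0154) and Chpf (0.44), and those lower were Chst13, Chst2 and Chst14. The call of Chst15 was lost under 12 of 20 alternatives and that of Chpf under 14. Chst12 lost its call without residual array 1 or 3 (adjusted p up to 0.0646), and Dsel without residual array 2 or 3 (adjusted p up to 0.064). Chst13, a chondroitin 4-O-sulphotransferase, fell by 1.55 (adjusted p = 0.0196), a call lost without residual array 2, residual array 3 or primary array 1. In recurrent against primary cells limma called 0 of 34, with 7 at an unadjusted p under 0.05. In recurrent against residual cells 1 was called higher and 2 lower (3.58% and 2.19% of all genes).

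Proteases and sulphatases that act on these proteoglycans numbered 21, of which 5 were called higher and 4 lower in residual cells (4.81% and 7.61% of all genes). In recurrent against primary cells 3 were called higher (0.818% of all genes). Of these, Ids (0.52, limma adjusted p = 0.0499) lost its call under 18 of 20 alternatives. Between recurrent and residual cells 2 were called higher and 1 lower (3.58% and 2.19% of all genes). Mmp2, a gelatinase that also cleaves decorin, read 7.72 to 7.99 on the primary arrays, 11.03, 10.23 and 11.76 on the residual arrays and 9.78, 9.51, 10.31 and 10.74 on the recurrent arrays. It rose by 3.13 (adjusted p = 0.000141) in residual and by 2.21 (adjusted p = 0.00463) in recurrent cells, and kept both calls in all 20 alternatives. Adamts5, an aggrecanase, rose by 2.33 (adjusted p = 0.0174) in residual cells, a call lost without residual array 1 (adjusted p up to 0.0599). Adamts1, a related protease, fell by 1.57 (adjusted p = 0.0128). Mmp9 took another course, with 1.36 in recurrent against primary (adjusted p = 0.0112) and 1.90 in recurrent against residual cells (adjusted p = 0.000804). Recurrent arrays read 5.95 to 6.65 against 4.23 to 4.39 on the residual ones.

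Of the partners in the collagen fibril that were called, most were higher in the groups in which the family was high. This list was chosen with earlier results of these data known, so its counts are a description. Of 25 measured, 14 were called higher and 2 lower in residual cells (4.81% and 7.61% of all genes). In recurrent against primary cells 7 were called higher and 1 lower (0.818% and 0.986% of all genes), and 17 were not called. The medians were 1.27 and 0.96, beside 0.03 and -0.01 over all genes. Dpt, which encodes the fibril-associated protein dermatopontin, read 4.05 to 5.19 on the primary, 8.60 to 10.67 on the residual and 7.99 to 10.86 on the recurrent arrays. It rose by 5.08 (limma adjusted p = 0.000309) and 5.14, and Col3a1, the chain of type III collagen, by 4.00 (adjusted p = 0.000306) and 3.90. Eln, elastin, rose by 3.60 (adjusted p = 0.0035) and 3.33, and Col1a1, a chain of type I collagen, by 2.47 and 2.95. The recurrent calls of Eln and Col1a1 were lost without primary array 3 or 4, that of Eln also without primary array 2, and the residual call of Col1a1 without residual array 3 (adjusted p up to 0.0599).

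Col11a1, a chain of the minor fibril collagen XI, was high in residual cells. It read 3.20 to 3.50 on the primary arrays, 6.50, 8.39 and 5.75 on the residual arrays and 3.29, 3.60, 3.77 and 5.27 on the recurrent arrays. It rose by 3.50 in residual cells and fell by 2.90 in recurrent against residual cells (adjusted p = 0.0119), a call lost when only those groups entered the fit (adjusted p up to 0.0714). The cross-linking enzyme genes Lox and Loxl3 moved in opposite directions. Lox rose by 0.69 and then fell by 0.81, and Loxl3 fell by 0.73 and then rose by 0.77. The calls of Lox were lost without residual array 1 in both comparisons (adjusted p up to 0.0647).

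Of 29 receptors and growth factors bound by the proteoglycans, 5 were called higher and 4 lower in residual cells. In recurrent against primary cells 2 were called higher and 1 lower, and in recurrent against residual cells 2 higher and 5 lower. Over all genes, 12.4%, 1.8% and 5.78% were called in either direction in these comparisons. Egfr, a receptor of decorin, rose by 2.23 (adjusted p = 0.000216) in residual and by 1.82 in recurrent cells. Tgfb3 rose by 1.99 (adjusted p = 4.67e-05) and 1.28. Tgfb1 read 9.02 to 9.21 on the primary, 10.54 to 10.62 on the residual and 8.50 to 9.49 on the recurrent arrays, so it rose by 1.44 in residual cells and fell by 1.48 in recurrent against residual cells. Met, the HGF receptor, read 7.76, 8.17 and 7.41 on the residual arrays and 9.57, 9.63, 12.44 and 12.46 on the recurrent arrays, a rise of 3.24 (adjusted p = 0.0159) that was lost without residual array 1 or 3 (adjusted p up to 0.0831). Cd14, a Toll-like receptor partner, fell by 1.46 in residual and by 1.00 in recurrent cells, and the recurrent call was lost without primary array 1, 2 or 3. Itga2, a collagen receptor chain, fell by 1.59 in residual cells.

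Markers of other cell types were read beside the family, since Dcn and Lum are themselves fibroblast genes. Of 20 fibroblast markers, with none of the 10 genes among them, 13 were called higher and 1 lower in residual cells. Of all genes, 4.81% were called higher and 7.61% lower. In recurrent against primary cells 7 were called higher (0.818% of all genes). Col1a1, Col3a1, Dpt and Mmp2 are among markers also counted above as collagen partners or proteases, so these counts are not independent. The marker list, too, was chosen with earlier results of these data known. A marker is said to lie at background in a group where its mean over the group's arrays does not exceed the group's background line, so single arrays may lie above it. The mean level of the 20 was 8.27 to 8.58 on the primary, 9.65 to 10.57 on the residual and 9.51 to 10.08 on the recurrent arrays, and residual array 3 was again the highest of its group. Of the 20, 18 lay above background in primary cells, among them Pdgfra at 8.41 to 8.71 and Pdgfrb at 7.57 to 7.75, while the group means of Fap were at background in all 3 groups. Their part in the proteoglycans' levels was not tested. Of 11 endothelial markers, 9 lay at background in primary cells, 8 in residual and 7 in recurrent cells, with Kdr, Emcn and Cldn5 there in all 3, and of 8 pericyte markers 6, 6 and 5 did, with Rgs5 and Kcnj8 there in all 3. Of the lymphocyte markers, 7 of 9 were at background in primary and 8 in residual and recurrent cells, Cd3e among them. Adipocyte markers at background were 4, 6 and 4 of 8. Macrophage markers had 5 of 11 called lower in residual cells (7.61% of all genes) and 1 lower in recurrent against primary cells (0.986%). Their mean level was 6.18 to 6.92 on the primary, 5.22 to 5.98 on the residual and 5.65 to 6.74 on the recurrent arrays.

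Epithelial markers were split. Of 17 luminal markers 2, Cldn4 (0.72) and Wfdc18 (1.48), were called higher and 4 lower in residual cells. Of all genes, 4.81% were called higher and 7.61% lower there. The median difference of the 17 was 0.42, and 3 were called lower in recurrent against primary cells (0.986% of all genes). Krt8 fell by 1.67 and Krt18 by 2.32 in residual cells, reading 8.18 to 8.59 and 7.08 to 8.83 there against 10 to 10.15 and 10.13 to 10.56 in primary cells. Of the 4 called lower, Krt18 (7.08), Krt8 (8.18) and Cldn3 (5.92) were lowest on residual array 3, and Areg (7.32) on residual array 2. Residual array 3 was the one on which 6 of the 8 expressed proteoglycans were highest. The mean level of the 17 was 5.57, 6.19 and 5.52 on residual arrays 1, 2 and 3. Whether these orders are linked was not tested. Krt14, a basal keratin, read 7.28 to 8.27 on the primary, 10.02 to 10.57 on the residual and 6.63 to 7.98 on the recurrent arrays, and rose by 2.73 in residual cells (limma adjusted p = 0.000286). Among 13 basal markers 2 were called higher in residual cells, Krt14 and Mylk, and 2 lower, Itga6 and Itgb4 (4.81% and 7.61% of all genes). Itga6, an integrin chain, read 8.43 to 8.7 on the primary and 5.56 to 6.62 on the residual arrays. It fell by 2.62 (limma adjusted p = 0.000233), a call lost under no alternative. The call of Mylk was lost under 9 of 20 alternatives and that of Itgb4 under 3. Krt5, Krt17 and Trp63 had means at background in residual cells. In recurrent against primary cells limma called 0 of 13 (3 at an unadjusted p under 0.05).

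**Figure D5:**
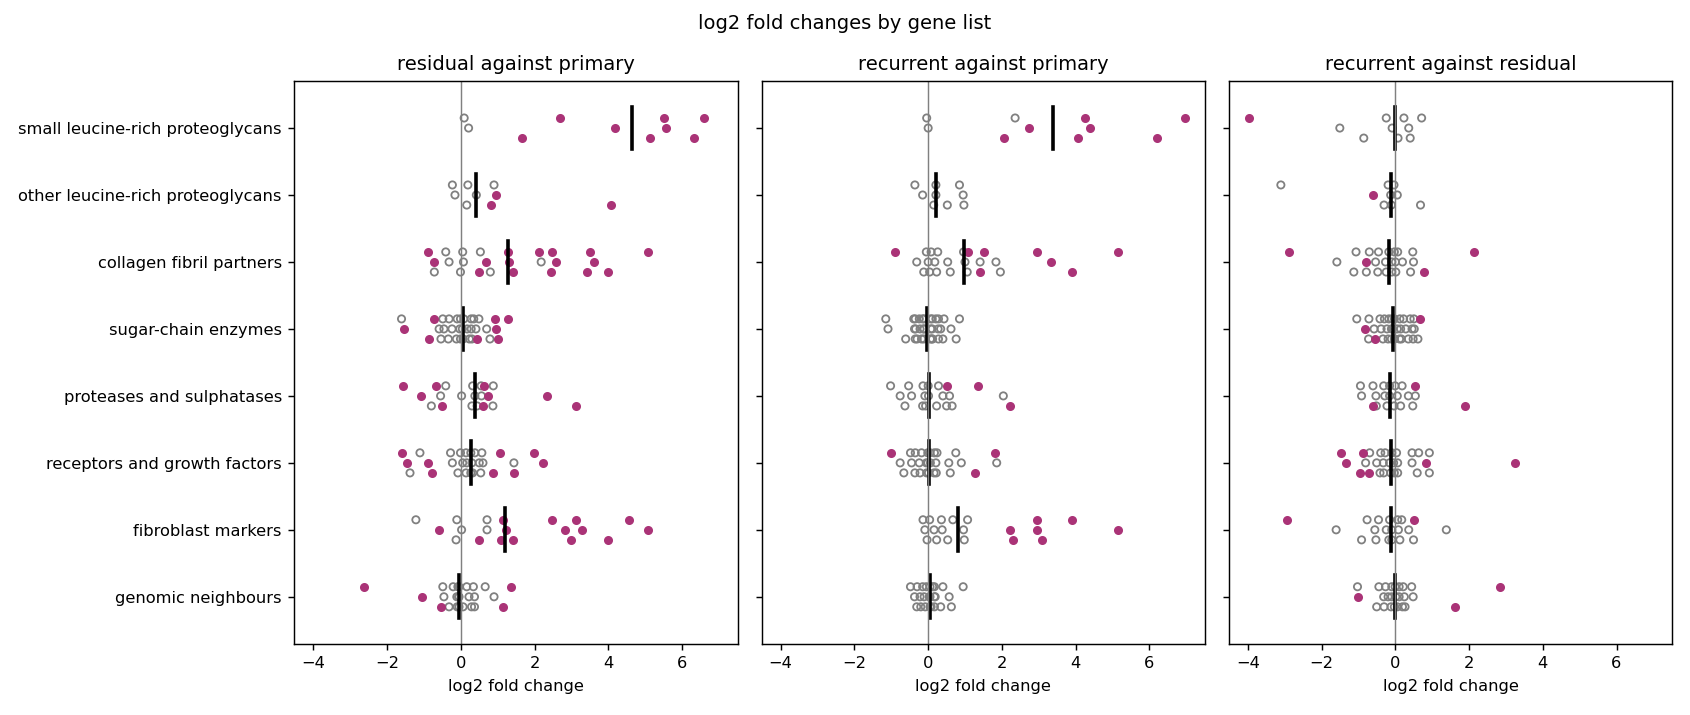
Log2 fold change (horizontal axis) of each gene of 8 lists (rows) in the 3 comparisons, with filled points for genes called by limma, open points for the rest and a bar for the list's median. In residual against primary cells the medians of collagen fibril partners and fibroblast markers lie at 1.27 and 1.19, and that of sugar-chain enzymes at 0.05.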

How the data were processed

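The 11 samples were each measured on 1 Affymetrix array. Their log2 signals, deposited by the authors as a table of 24479 rows, came from RMA (background correction, normalization and probe summary on the log2 scale) and R 3.0.2, as the submitters' processing notes list. Which version of the probe annotation was used is not stated in the labels. RMA compresses differences between dim signals. The log2 values (1.1 to 13.34) were used as deposited.

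Probe sets were named by the platform's table (23281), or by Entrez Gene identifier in a RefSeq table of GRCm38.p6 (556). The other 642 were left out, which gave 23835 named genes. Of symbols with more than 1 probe set, the brighter was kept. Gene order came from the same table. Promoter windows and sequences are RefSeq's for GRCm38.p6.

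Using limma 3.58.1 in R 4.3.3, the 3 groups were modelled together over the arrays (residual degrees of freedom 8, prior 3.46). P-values of the moderated two-sided test were Benjamini-Hochberg adjusted across every gene of a comparison, and called genes are those with an adjusted p under 0.05. The script was tested on simulated data. At-least folds set a group's mean against the mean of, per primary array, the higher of the gene's signal and the background line. They allow for the background but not for the spread between arrays. Precision is limited by how many arrays there are. Plots were made in Python 3.11.15 with matplotlib 3.10.9.

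The 10 genes, the lists and the motifs were chosen with earlier results of these data known. Named genes are the 10, all other leucine-rich proteoglycans and genomic neighbours (the nearest 3 on either side), and of each further list up to 4 called genes with the largest change whose groups did not overlap, or up to 2 with the smallest p, plus the brightest marker of cell type lists. Genes named outside this rule (Wnt1, Epcam, Chst2, Chst14, Pdgfra, Pdgfrb, Cldn4, Wfdc18 and markers at background) were chosen after their values were seen. The 3 nearest patterns were taken per gene. Alternatives were fits on 2 groups, a replicate block, centring, quantile normalization, a filter on dim genes, a trended robust spread, stricter thresholds and leaving out each array. Scaling to 1 interquartile range was added after seeing the data.

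Titles number the replicates, but the deviations of same-numbered arrays correlated at -0.08 to 0.02, so the numbers were not taken to pair samples.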

Additional observations from a re-analysis of the deposited data

Results flagged for a closer look

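Of 226 groups of 4 arrays tested over 113 named genes, 19 held 1 array far from the others of its group, where chance gives about 1 in 20. Among the 10 proteoglycans these were Omd on recurrent array 3, at 5.22 beside 7.09 to 7.45 on the other recurrent arrays, and Kera on primary array 4, at 2.67, which lies below background. Recurrent array 3 also stood apart for Cdh5, an endothelial cadherin, at 10.13 against 4.66 to 5.09 on the others, for Mfap5, a microfibril gene, at 10.15, and for Pnck, a neighbour of Bgn, at 5.75.

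Primary array 2 stood apart for Podnl1 (5.16), Chst12 (7.82), Met (8.81), C1qb (7.41), Atp2b4 (5.58) and Ccer1 (3.30). Primary array 1 stood apart for Scx (8.28) and Erg (3.75). Tek (2.64 on primary array 1) was picked out too, below background, with all primary values equal to 2 decimals. Primary array 4 stood apart for Itgam (4.57). Recurrent array 1 stood apart for Cilp2 (4.88), Klrb1c (4.57) and Adipoq (4.59), and recurrent array 2 for Erg (4.92).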

How the results depend on the processing

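No called fold change turned its sign under any of the alternatives run. Uncalled differences did: in recurrent against residual cells Aspn (0.71) ran down to -0.08, Lum (0.23) to -0.23, Ogn (0.36) to -0.12, Dcn (0.07) to -0.20, and Omd (-0.86) up to 0.06, and Kera and Epyc at background also changed sign. Of the fold changes of the 10 proteoglycans, 591 shifted by less than the larger SD of the groups compared, and 3, of Kera at background, moved. Leaving out 1 array cannot shift a group's mean by its SD, and a stricter threshold leaves a fold as it is. The 591 are therefore no test of stability. Of 98 calls of related genes, 41 were lost under no alternative and 57 under at least 1. Of the counts of called genes per list under the alternatives, 839 stayed close to the main count and 121 moved.

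The count of all genes called in residual against primary cells was 2960 (unadjusted p under 0.05: 6141). It became 1375 at an adjusted p under 0.01, 1361 with a 2-fold change as well, and 2228 to 3073 without single arrays. With arrays centred on their medians 899 were higher and 2333 lower, against 1146 and 1814. In recurrent against primary cells the count was 430, with 142 at 0.01, 266 with a 2-fold change, and 203 to 420 without single arrays (207, 225, 211 and 203 without primary arrays 1, 2, 3 and 4). In recurrent against residual cells it was 1377, with 609 when only these groups entered the fit, 521 at 0.01, 708 with a 2-fold change, and 936 to 1325 without single arrays. With the replicate block the counts were 2198, 277 and 872, and the samples share only a number. The cause of these shifts was not tested, beyond stricter thresholds and fewer arrays by construction. Signals at or below the background line give no fold, which limits Kera and Epyc, and the primary level of Aspn, Fmod, Lum, Omd and Ogn.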

Other observations

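Markers of tendon and cartilage, tissues in which Fmod, Omd, Aspn and Prelp are abundant, were read as a further list of 14 genes. In residual cells 4 were called higher, in recurrent against primary cells 1 was higher, and in recurrent against residual cells 4 were lower. Over all genes these shares were 4.81%, 0.818% and 2.19%. Col11a1, which is on this list too, was already counted among the collagen partners. Comp, cartilage oligomeric matrix protein, read 3.27 to 3.91 on the primary arrays, 9.19, 8.30 and 9.77 on the residual arrays, and 7.63, 8.01, 6.29 and 5.30 on the recurrent arrays. It rose by 5.51 in residual cells (limma adjusted p = 9.26e-05) and by 3.23 in recurrent cells (adjusted p = 0.00985), and fell by 2.28 in recurrent against residual cells (adjusted p = 0.0371), a call lost under 11 of 20 alternatives. Scx, a transcription factor of tendon, read 9.53 to 9.78 on the residual and 8.28 to 8.53 on the primary arrays, a difference of 1.19 that did not pass the test. Mkx and Tnmd, further tendon genes, and Prg4 and Cilp had group means at background in all 3 groups, with single residual and recurrent arrays of Prg4 above it (up to 4.55 and 4.69).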
